A study of Mus musculus with 6 samples.

Results

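Gata3, Il1rl1, Rora and Il4 were examined in the CD45+ cells of the ventral midbrain of Line 61 mice. They are 4 of the 32285 genes counted in each library. The 4 genes were chosen by symbol as genes linked to type 2 lymphoid cells, and the choice rested on values of these same libraries. These values were their co-expression per cell and their levels in lymphoid cells against microglia, across the 4 libraries and the hashtags of the PFF libraries. For Gata3 and Il4 they included the comparison of PFF + AZD1480 with PFF + VH. Their presence and co-detection in lymphoid cells are therefore descriptions and were given no test. Male Line 61 mice, which express human α-Syn under the Thy1 promoter, received PBS, monomeric human α-Syn (monomer) or sonicated preformed fibrils of it (PFF) in both striata at 12 to 15 weeks of age. From 2 weeks after the injection the PFF mice were gavaged daily with the JAK1/JAK2 inhibitor AZD1480 at 25 mg/kg or with the DMSO vehicle (VH). Live CD45+ cells were sorted at 6 weeks and sequenced as 1 droplet library per condition, with 3 to 5 midbrains pooled per sample, and all 4 groups carry the transgene. No group without the transgene, and no PBS or monomer group with AZD1480, was analysed here.

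Gata3 encodes a zinc finger transcription factor that binds GATA sites and is needed by T helper 2 cells and by group 2 innate lymphoid cells (ILC2). Il1rl1 encodes ST2, the receptor for the alarmin IL-33, which is also carried by mast cells and by part of the regulatory T cells. Rora encodes the nuclear receptor RORα, which ILC2 need for their development, and Il4 encodes the type 2 cytokine IL-4. ILC2 lack the T-cell receptor complex and are known as sources of IL-5, IL-13 and amphiregulin, and those of the meninges respond to IL-33.

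The genes lie on 4 chromosomes of GRCm38. Gata3 (ENSMUSG00000015619) spans chr2:9857078-9890034 on the minus strand, Il1rl1 (ENSMUSG00000026069) chr1:40429570-40465415 on the plus strand, Rora (ENSMUSG00000032238) chr9:68653786-69388246 on the plus strand and Il4 (ENSMUSG00000000869) chr11:53602982-53618669 on the minus strand. Rora is the longest at 734 kb, against 15.7 kb for Il4, 33.0 kb for Gata3 and 35.8 kb for Il1rl1. Whether intronic reads were counted is not given in the sources used here, which bears on the level of a gene as long as Rora. The 250 bases before a transcription start are shown for 3 of the genes, because Gata3 was found in the same cells as the others and its protein binds GATA motifs. Capitals mark the motif AGATAA, or the motif TGATAA, or AGATAG, or else TGATAG, searched on both strands, so that a match on the other strand appears as its reverse complement, and no matches overlap. The windows are from RefSeq on GRCm38.p6, printed 5′ to 3′ along the strand of the gene.
Il1rl1, distal start, chr1:40429320-40429569, plus strand: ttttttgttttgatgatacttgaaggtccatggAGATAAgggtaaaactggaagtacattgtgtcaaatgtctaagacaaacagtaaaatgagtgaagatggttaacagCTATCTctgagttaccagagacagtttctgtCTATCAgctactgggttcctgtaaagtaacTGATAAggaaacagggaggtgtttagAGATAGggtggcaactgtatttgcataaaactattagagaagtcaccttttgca
Il1rl1, proximal start, chr1:40439379-40439628, plus strand: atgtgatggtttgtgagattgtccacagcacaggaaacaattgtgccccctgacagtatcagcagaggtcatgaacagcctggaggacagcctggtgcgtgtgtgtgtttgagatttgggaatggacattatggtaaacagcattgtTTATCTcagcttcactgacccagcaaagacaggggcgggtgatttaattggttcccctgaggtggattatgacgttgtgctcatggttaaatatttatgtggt
Rora, chr9:68653536-68653785, plus strand: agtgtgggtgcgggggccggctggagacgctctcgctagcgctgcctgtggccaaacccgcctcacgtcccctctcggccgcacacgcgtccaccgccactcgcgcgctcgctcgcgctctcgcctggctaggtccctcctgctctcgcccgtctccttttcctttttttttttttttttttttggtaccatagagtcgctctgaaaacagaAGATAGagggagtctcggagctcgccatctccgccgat
Gata3, before an internal start, chr2:9878601-9878850, minus strand: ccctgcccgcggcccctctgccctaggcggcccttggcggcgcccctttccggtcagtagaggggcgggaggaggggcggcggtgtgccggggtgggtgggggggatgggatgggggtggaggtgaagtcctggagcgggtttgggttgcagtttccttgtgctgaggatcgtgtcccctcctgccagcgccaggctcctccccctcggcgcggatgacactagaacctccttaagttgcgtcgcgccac
The distal Il1rl1 window holds 5 of these motifs, the proximal one holds 1 and the Rora window holds 1. The Gata3 window holds none, nor does the Il4 window that ends at the 5′ end of the gene (chr11:53618666-53618915), whereas a window before an internal Il4 start (chr11:53617339-53617588) holds 1. At least 1 such motif lies in 26.5% of the 32851 windows of this length. A match is a stretch of letters and was not measured as a binding site.

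Of 77105 cells kept, 1050 were lymphoid by the summed UMIs (unique molecules) of marker genes that include none of the 4 members. There were 260 lymphoid cells in the PBS library, 203 with monomer, 435 with PFF + VH and 152 with PFF + AZD1480, and they were divided by marker UMIs into T, NK and other lymphoid cells. The other lymphoid cells numbered 9, 7, 52 and 11 in that order. The PFF + VH library stood apart in depth, with a median of 2260 UMIs per lymphoid cell against 5395.5, 6047 and 6172 in the PBS, monomer and PFF + AZD1480 libraries, and 46 of its lymphoid cells held only 3 or 4 lymphoid marker UMIs against 1, 1 and 3. In the PFF + VH cells labelled other lymphoid the median was 930 UMIs. Library and condition cannot be told apart. The study names 3 replicates each for PBS and monomer, but their libraries carry no hashtags that would separate these. The matrices of PFF + VH and PFF + AZD1480 carry 4 and 5 hashtags, each taken as 1 replicate. Over the 4 libraries 577 of 76528 distinct cell barcodes occurred in more than 1 library. The T class also contained cells without a UMI of Cd3d, Cd3e, Cd3g or Trac that were placed there by Trbc1 or Trbc2, which encode the constant regions of the T-cell receptor β chain. After this was seen, the non-NK lymphoid cells were also split into 483 CD3-positive cells with a UMI of one of these 4 genes and 114 CD3-negative cells with none.

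Most Gata3 UMIs were in lymphoid cells. These cells made up 1.36% of all cells and held 674 of the 804 Gata3 UMIs, or 83.8%. By library the share was 94.2% with PBS, 95.8% with monomer, 64.1% with PFF + VH and 76.4% with PFF + AZD1480. The microglia class held 4.71%, 4.20%, 32.9% and 17.8% in that order. In CD3-negative cells the Gata3 level was 855 CPM, the UMIs of the gene scaled to the total UMIs of the class (95% Poisson interval 589 to 1201), with PBS, 1104 CPM (862 to 1392) with monomer, 360 CPM (248 to 505) with PFF + VH and 670 CPM (520 to 849) with PFF + AZD1480. CD3-positive cells were below CD3-negative cells in each library, at 145, 187, 60.5 and 115 CPM. NK cells held 40.1, 83.5, 58.0 and 62.1 CPM, and the counting intervals of CD3-positive and NK cells overlapped in PFF + VH (41.4 to 85.4 and 41.8 to 78.3 CPM) and in PFF + AZD1480 (90.5 to 144 and 34.8 to 102 CPM). Intervals cover counting error only. In microglia (MG) the Gata3 level was 0.0933 CPM with PBS, 0.106 with monomer, 0.541 with PFF + VH and 0.458 with PFF + AZD1480. Of 78 MG cells with Gata3, 62 held 1 UMI of it, and 19 of these 62 (30.6%) also held at least 3 lymphoid marker UMIs, with a median of 1. Of the 16 MG cells with 2 or more Gata3 UMIs, 14 held at least 3, with a median of 22. The share was 2.93% in MG cells without Gata3. B cells and neutrophils (Neu) had no Gata3 UMI in any library, and 3 counts over the Neu cells of all libraries would be 2.74 CPM. In MG without any lymphoid or mast marker UMI the Gata3 level was 0.0363, 0.0522, 0.129 and 0.178 CPM.

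Il1rl1 marked fewer lymphoid cells than Gata3 did, and it was not confined to them. CD3-negative cells held more than CD3-positive and NK cells in each library, with 726 CPM (482 to 1049) with PBS, 948 (725 to 1218) with monomer, 131 (67.6 to 228) with PFF + VH and 315 (216 to 445) with PFF + AZD1480. CD3-positive cells held 27.4, 67.0, 11.3 and 22.7 CPM. NK cells had no Il1rl1 UMI in 3 libraries and 4 UMIs in PFF + VH. A count of 0 in 109, 100 and 37 NK cells (PBS, monomer, PFF + AZD1480) allows shares of up to 2.75%, 3.00% and 8.11% of cells with a UMI. MG held Il1rl1 at a low and even level of 5.18, 4.64, 6.38 and 6.18 CPM, and as 91.5% of all cells they carried 83.2% of all 2508 Il1rl1 UMIs. In MG without any lymphoid or mast marker UMI the level was 5.42, 5.20, 6.23 and 5.81 CPM. B cells and Neu had no Il1rl1 UMI, where 3 counts would be 4.01 CPM over the B cells and 2.74 CPM over the Neu of all libraries, both below the MG levels.

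Rora was spread over all lymphoid groups, NK cells included. CD3-negative cells held 933 CPM (653 to 1291) with PBS, 1835 (1519 to 2197) with monomer, 360 (248 to 505) with PFF + VH and 1743 (1496 to 2019) with PFF + AZD1480. CD3-positive cells held 307, 519, 189 and 554 CPM and NK cells 154, 162, 112 and 219 CPM. PFF + VH was the lowest library in each of these 3 groups, although in NK cells its interval (88.8 to 139 CPM) overlapped those of PBS (125 to 188) and monomer (131 to 198). In MG Rora was at 20.4, 18.2, 18.7 and 29.0 CPM, in 11%, 9.30%, 5.00% and 13.7% of cells. Cells with markers of non-immune types, 76 in all, held 339 CPM, or 412 with PBS, 165 with monomer, 97.3 with PFF + VH and 633 with PFF + AZD1480, and 219 CPM without the last library.

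Il4 was rare. The 77105 cells held 166 Il4 UMIs, of which 50 were in lymphoid cells, 32 in mast cells, 61 in MG and 20 in the macrophage and monocyte class (MM). In CD3-negative cells it had 5 UMIs with PBS, 2 with monomer, 2 with PFF + VH and 17 with PFF + AZD1480, which is 130 (42.1 to 302), 31.1 (3.77 to 112), 21.8 (2.64 to 78.7) and 167 CPM (97.5 to 268). CD3-positive cells had 5, 11, 4 and 4 UMIs and NK cells had none in any library. The MG level was between 0.124 and 0.226 CPM.

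The 21 cells of the class set by mast cell markers, called mast cells here, carried 2 of the 4 genes. Cell types within this class were not told apart. Il1rl1 was found in 16 of them and Il4 in 10, with 77 and 32 UMIs, at 650 CPM (513 to 812) and 270 CPM (185 to 381) over all libraries. With PBS, monomer, PFF + VH and PFF + AZD1480 the Il1rl1 level was 190, 1324, 321 and 994 CPM in turn, and that of Il4 was 571, 407, 37.8 and 442 CPM, on 2, 2, 11 and 6 mast cells. Without the PFF + VH library the Il4 level of mast cells was 457 CPM, and without PFF + AZD1480 it was 164 CPM. Gata3 had no UMI in any mast cell, where 3 counts would be 25.3 CPM, and Rora had 1. Il1rl1 without Gata3 therefore occurred in this class in all 4 libraries, with 2, 2, 7 and 5 Il1rl1-positive cells. The 2 PBS cells held 65 and 69 mast marker UMIs, beside 18 and 16 UMIs of the lymphoid list. Over the 21 cells the mast marker UMIs ran from 23 to 1397.

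**Figure D1:**
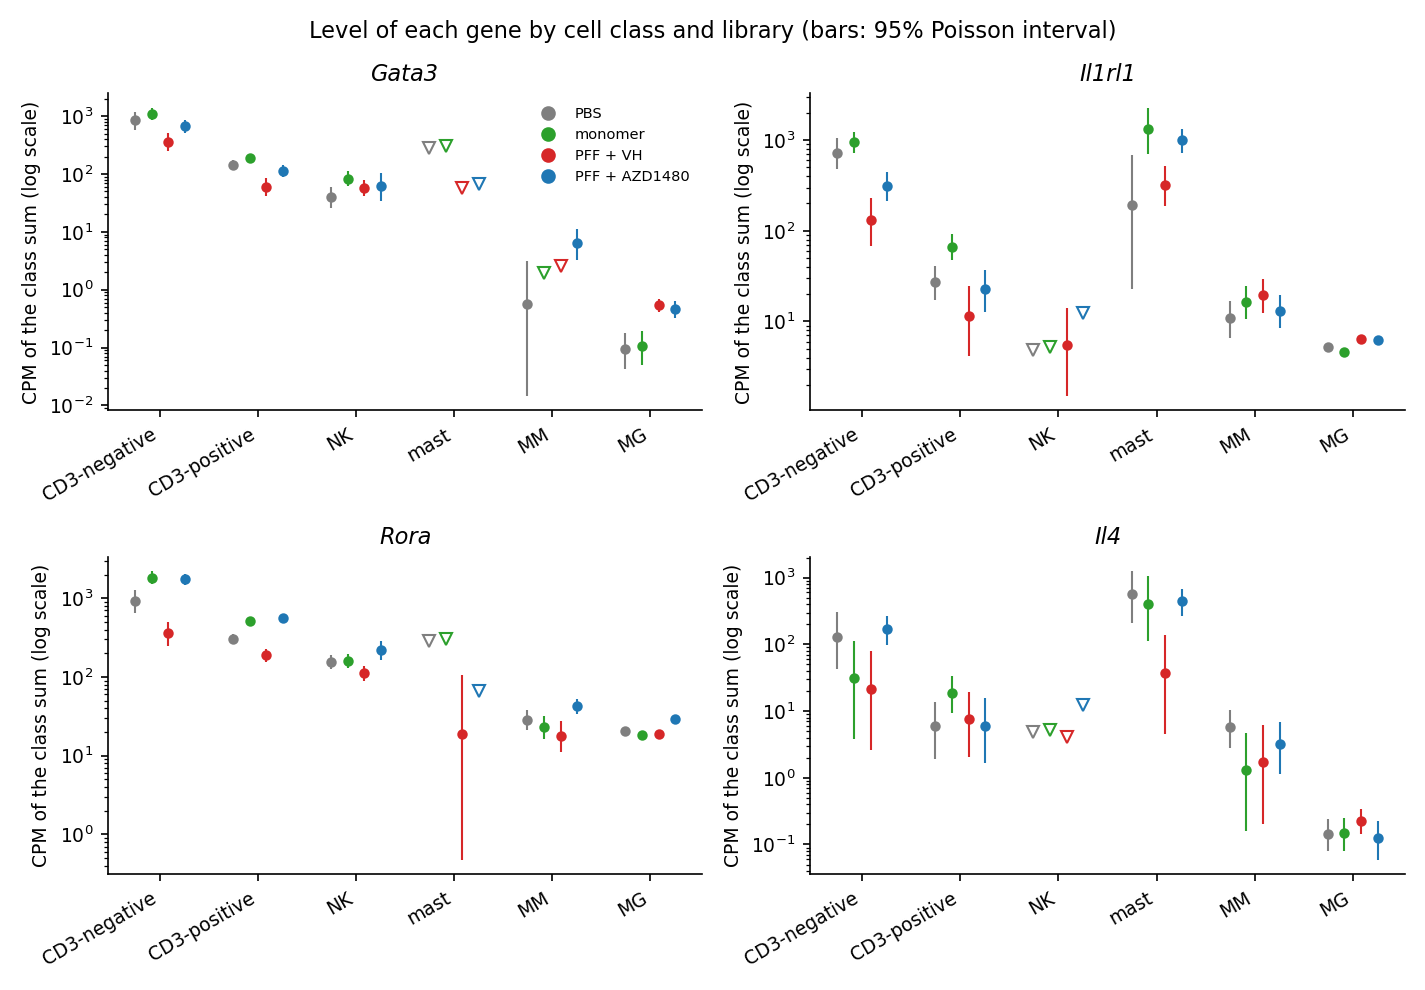
Level of each gene (CPM of the summed UMIs of a class, log scale) in 6 cell classes of the 4 libraries, with 95% Poisson intervals for counting error. Open triangles are classes with 0 UMIs, drawn at the level of 3 counts. CD3-negative lymphoid cells hold Gata3 at 360 to 1104 CPM and MG at under 1 CPM, and Il1rl1 and Il4 are also found in mast cells.

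The share of cells with a UMI depends on depth, so cells were thinned to 1000 UMIs. This left out 80 of 435 PFF + VH lymphoid cells but 8, 4 and 1 of the PBS, monomer and PFF + AZD1480 ones. At this depth a Gata3 UMI was found in 11.5% of PBS cells, 13.1% of monomer cells, 9.58% of PFF + VH cells and 15.9% of PFF + AZD1480 cells (unthinned 28.5%, 42.4%, 17.2% and 40.1%). The exact 95% binomial interval was 7.84 to 16.1% in PBS and 10.5 to 22.7% in PFF + AZD1480. For Rora the thinned shares were 21.0%, 21.1%, 12.4% and 29.1%, with intervals of 9.15 to 16.3% in PFF + VH and 22.0 to 37.1% in PFF + AZD1480. Each condition is 1 library here, so these intervals describe the libraries and compare no conditions. In thinned MG cells Gata3 was found in at most 0.0400%, and Rora in 2.12%, 1.54%, 1.81% and 2.79%. The lymphoid share was above the MG share for each of the 4 genes in each of the 4 libraries.

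The members were found together in single cells. Among lymphoid cells thinned to 1000 UMIs, Il1rl1 was detected in 17.2% of cells with a Gata3 UMI and 1.35% of those without one with PBS, 30.8% and 2.89% with monomer, 11.8% and 0.935% with PFF + VH, and 20.8% and 2.36% with PFF + AZD1480. Rora was detected beside Gata3 in 41.4%, 46.2%, 35.3% and 50.0% of cells, against 18.4%, 17.3%, 9.97% and 25.2% of cells without Gata3. The cells with Gata3 were 29, 26, 34 and 24. Of the 36 cells with an Il1rl1 UMI in all libraries, 22 held Gata3 and 22 held Rora. Over 6 pairs in 4 libraries, the second gene was more frequent in cells with the first in 22 of 24 cases, and in 14 of 24 when cells were thinned to 500 UMIs. At 1000 UMIs the remaining 2 cases were Il1rl1 beside Il4 in monomer and Rora beside Il4 in PFF + VH, which rest on 4 and 2 Il4-positive cells. Cells of a library share its free RNA and differ in type, so these shares are descriptions of each library. The members were chosen with their co-expression known, and no such count was made for other pairs of genes.

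**Figure D2:**
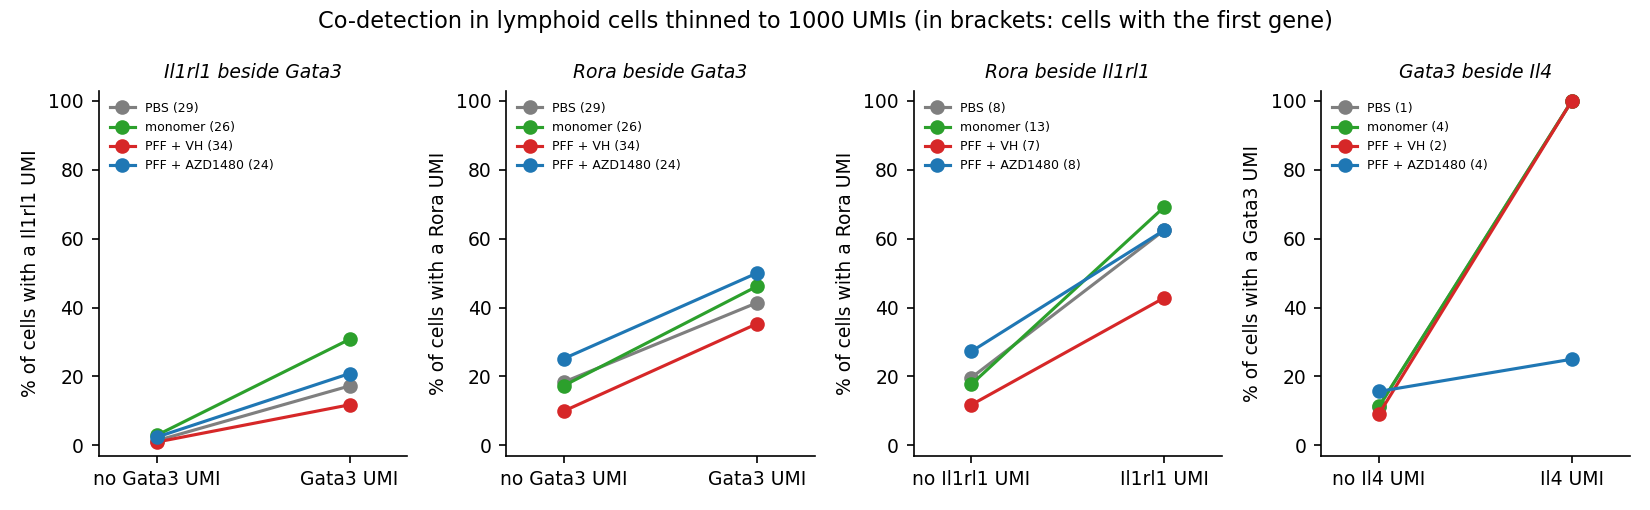
Percent of lymphoid cells, thinned to 1000 UMIs, that hold a UMI of the second gene, among cells without and with a UMI of the first, with 1 line per library and the number of cells with the first gene in brackets. Il1rl1 and Rora are more frequent beside Gata3 in all 4 libraries, and the Il4 panel rests on 1 to 4 cells per library.

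Without thinning, 50 lymphoid cells held UMIs of all 3 of Gata3, Il1rl1 and Rora: 9 with PBS, 16 with monomer, 12 with PFF + VH and 13 with PFF + AZD1480. CD3-negative cells were 114 of the 1050 lymphoid cells and 31 of these 50, and 16 of the 50 were CD3-positive and 3 were NK cells of PFF + VH. In the CD3-negative group the 3 genes were found together in 5 of 11 cells with PBS, 9 of 16 with monomer, 7 of 67 with PFF + VH and 10 of 20 with PFF + AZD1480. Of the 67 CD3-negative PFF + VH cells, whose median depth was 1001 UMIs, 26 held only 3 or 4 lymphoid marker UMIs and 48 held none of the 3 genes. Leaving that library out, 24 of 47 CD3-negative cells and 14 of 322 CD3-positive cells held all 3. Il4 was found in 29 lymphoid cells, of which 25 held Gata3, and 14 of the 50 cells also held Il4. Trbc1 or Trbc2 was found in 44 of the 50 cells, and in 29 of 34 of those without a CD3 or Trac UMI. None of the 50 was called a doublet by Scrublet, but 7 of the 25 that came from the PFF libraries carried more than 1 hashtag (2 of 12 with PFF + VH and 5 of 13 with PFF + AZD1480). Among all lymphoid cells 102 of 435 and 69 of 152 carried more than 1, beside 10.7% and 12.5% of all cells of these libraries. Without the 7 cells 43 remained, of which 27 were CD3-negative, 16 held Il13 and 27 held Areg. In the 50 cells the median mast marker UMI count was 0 and the median MG marker UMI count was 2.

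Of 37 listed type 2 genes, 28 were found in a larger share of the 50 cells than of 467 other CD3-positive cells, 7 in a smaller share and 2, Il9 and Ptgdr2, in no cell of either. Of all 16163 genes found in a cell of either group, 35.6% were in a larger share of the 50 cells. The 37 genes were chosen with earlier results of these data known, so their count is a description. Several of the 28 were nearly equal, such as Bcl11b in 58.0% against 57.2% of cells and Il1rap in 10.0% against 8.99%. Il13, the cytokine that acts with IL-4 through a shared receptor chain, was found in 17 of the 50 cells, against 3 of 83 other CD3-negative cells, 1 of 467 other CD3-positive cells and 0 of 450 other NK cells. Areg, which encodes the growth factor amphiregulin, was found in 29, against 9, 10 and 8. As a level, Areg was at 1004 CPM in the 50 cells and 710 CPM in the other CD3-negative cells, and Il13 at 547 and 111 CPM. Of the 147 Il13 UMIs of the 50 cells 88 came from PFF + AZD1480, and without that library the level was 317 CPM in 37 cells. Calca, which encodes the neuropeptide CGRP, was found in 22, Il17rb, a subunit of the IL-25 receptor, in 18, Hs3st1 in 14 (104 CPM, against 83.5 CPM in the other CD3-negative cells) and Arg1, which encodes arginase-1, in 16. Il5 was found in 3 and Nmur1, the neuromedin U receptor, in 3. The 7 genes found in a smaller share were Il18r1 (6 of the 50 against 199 of the 467), Stat5b (15 against 206), Tcf7 (5 against 169), Il4ra (4 against 98), Crlf2 (8 against 94), Stat5a (2 against 56) and Irf4 (3 against 54). Il7r, the IL-7 receptor chain that lymphoid cells need for survival, was found in 48, and Il2ra, the high-affinity IL-2 receptor chain, in 35. Some genes of other lineages are given for the 50, the 467 other CD3-positive and the 83 other CD3-negative cells. Tbx21, the factor of type 1 cells, was found in 1, 109 and 3, and Ifng in 2, 80 and 0. Il17a was found in 0, 30 and 1, and Foxp3, the factor of regulatory T cells, in 1, 13 and 0. Ncr1, an NK receptor, was found in 3, 20 and 2. Few of the other CD3-negative cells held these genes either. Ikzf2, which regulatory T cells and other lymphoid cells use, was found in 24, 160 and 18. P2ry12, an MG gene, was found in 24 of the 50 cells, 241 of the 467 and 213 of the 450. In the other lymphoid class, which was set without the members, Il13 (540 CPM, 429 to 670), Areg (520), Tox (454), Ikzf2 (402) and Ets1 (375) led 45 listed genes over all libraries. The order differed between libraries, and 72 of the 82 Il13 UMIs came from the 11 cells of PFF + AZD1480, where Il13 ranked first. It had no UMI with PBS. With monomer it had 3 UMIs, in a tie over ranks 15 to 21, and with PFF + VH 7 UMIs, tied with Tnfrsf18 at ranks 9 and 10. Tox, Areg and Ikzf2 led the PBS, monomer and PFF + VH libraries in turn. The 50 cells were picked by 3 of the members, at a median of 5181.5 UMIs, and the counts describe them without a test.

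**Figure D3:**
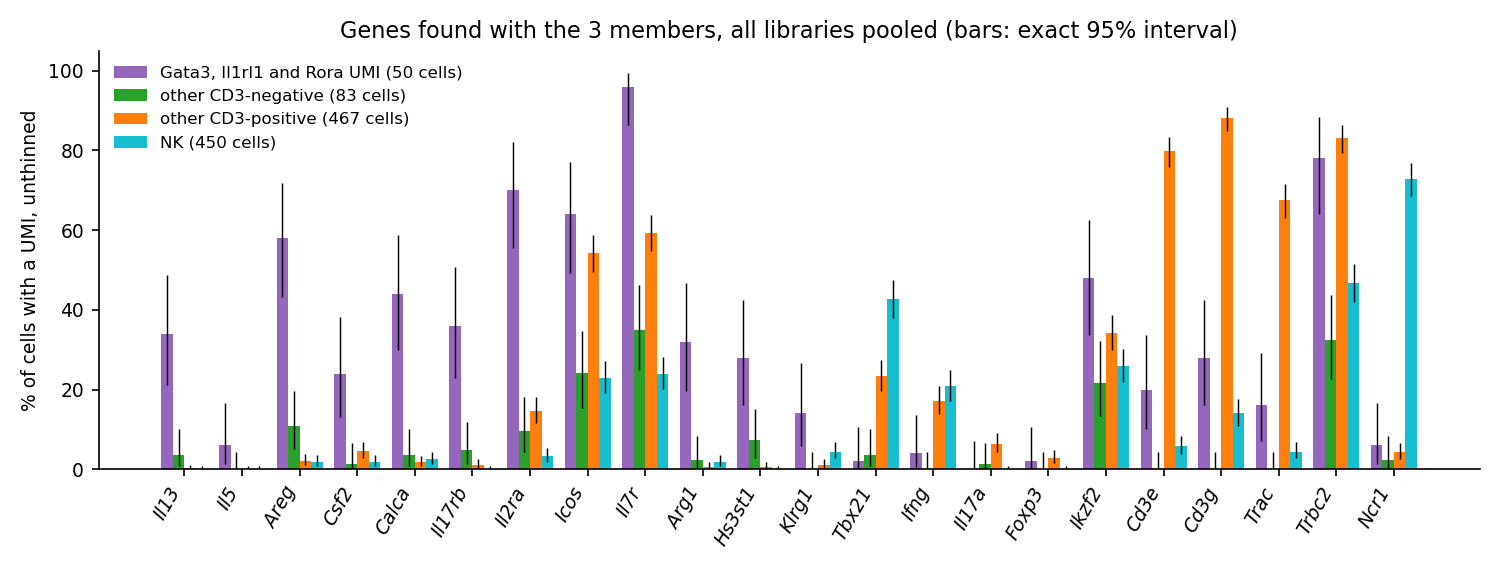
Percent of cells with a UMI of each gene, unthinned and over all 4 libraries, in the 50 lymphoid cells that hold Gata3, Il1rl1 and Rora, in 83 other CD3-negative, 467 other CD3-positive and 450 other NK cells, with exact 95% binomial intervals for counting error. Il13 is found in 17 of the 50 cells and Cd3e in 10.

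Rora was also first when all 32284 other genes were ranked by how much the thinned share differed between lymphoid cells with and without a Gata3 UMI, with a mean over the 4 libraries of 43.2% against 17.7%. Il1rl1 ranked 8th among the genes that were more frequent beside Gata3, at 20.2% against 1.88%, and Il4 164th. The members were chosen with their co-expression in these cells known, so their ranks describe that choice. Among the 10 leading genes, the others more frequent beside Gata3 in all 4 libraries were Kcnq5, a potassium channel (45.4% against 20.6%), Sh3bgrl3, Samsn1, Gadd45b and Zfp36l1. Those of the 10 that were less frequent in all 4 libraries were Ccl5 (25.8% against 48.4%), Nkg7, a cytotoxic granule gene (22.9% against 43.3%), Tyrobp, the signalling adaptor of NK and myeloid cells, and Gm2682. Across 27 sums of a class in a library the log2(CPM + 1) profile of Gata3 was most like those of Camk4 (Pearson r = 0.978), Icos, Gprin3, Tcrg-C4 and Trdc. The profile of Il1rl1 was most like that of Cd4 (r = 0.845), followed by Areg, Kcnn4, Themis and Cd5, that of Rora most like Ctla2a (r = 0.900), Prkcq, Atp10a, Thy1 and Itga1, and that of Il4 most like Cd4 (r = 0.909), Il1rl1, Themis, Areg and Kcnn4. The sums share libraries and classes, so these coefficients are descriptions. The classes in these sums do not separate the CD3-negative cells from the T class, and mast cells were too few to enter.

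The hashtags, taken as replicates, allowed PFF + AZD1480 to be compared with PFF + VH. Each treatment is 1 library, so an effect of JAK1/JAK2 inhibition cannot be told apart from a difference between the libraries. Of the lymphoid cells, 70, 69, 82 and 75 carried a single hashtag in PFF + VH and 19, 19, 6, 29 and 10 in PFF + AZD1480. Hashtag 3 of PFF + AZD1480, with 6 cells, fell under the minimum of 10 and was left out, so that 4 stood against 4. Rora in lymphoid cells was at 166, 110, 260 and 195 CPM in the PFF + VH hashtags and at 810, 851, 554 and 714 CPM in those of PFF + AZD1480. All 4 AZD1480 values were above all 4 VH values, and the hashtag left out was at 109 CPM on 4 UMIs. By edgeR's quasi-likelihood test Rora was higher in PFF + AZD1480 by a log2 fold change of 1.97 ± 0.24 (SE, n = 4 and 4; Benjamini-Hochberg adjusted p = 5.85e-05). Rora and Il1rl1 were chosen with their levels across these hashtags known. Their p-values, in every class, are therefore not those of genes picked without the data. Of 3252 genes tested 191 passed the adjusted threshold of 0.05, or 5.87%, of which 84 (2.58%) were higher and 107 (3.29%) lower. With the hashtag of 6 cells kept the log2 fold change of Rora was 1.76 (adjusted p = 0.0171). Without a condition on MG markers, which admits cells with more MG than lymphoid UMIs, it was 0.68 and did not pass (adjusted p = 0.225).

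Il1rl1 was at 51.6, 0, 23.6 and 8.67 CPM in the PFF + VH hashtags and at 97.2, 69.4, 62.8 and 75.9 CPM in those of PFF + AZD1480. The 4 and 4 values do not overlap, but they rest on 9, 0, 5 and 2 UMIs against 9, 8, 11 and 5. The share of all genes without overlap was not counted, here or for Rora in any class. The AZD1480 hashtag of 6 cells that was left out had no Il1rl1 UMI, which is within the VH range. Il1rl1 entered the test through the AZD1480 hashtags alone, since no VH hashtag reached the level that the filter on low counts asks of 4 hashtags. Its log2 fold change was 1.87 ± 0.57 (SE, n = 4 and 4) and did not pass the threshold over all genes (adjusted p = 0.0623, edgeR). It passed without hashtag 1 of PFF + VH, which held its highest VH level (2.67, adjusted p = 0.0269, edgeR). It also passed without a filter on low counts and without Scrublet doublets. These alternatives use the values by which Il1rl1 was chosen, so they add no support. Gata3 and Il4 were chosen on this contrast and are described only. Gata3 was at 132, 28.8, 123 and 47.7 CPM with VH and at 64.8, 260, 148 and 228 CPM with AZD1480, and the groups overlap. Il4 had 1, 4, 1 and 0 UMIs against 4, 3, 8 and 1, or a mean of 7.41 ± 8.25 against 32.5 ± 14.5 CPM (SD, n = 4 and 4), also with overlap.

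**Figure D4:**
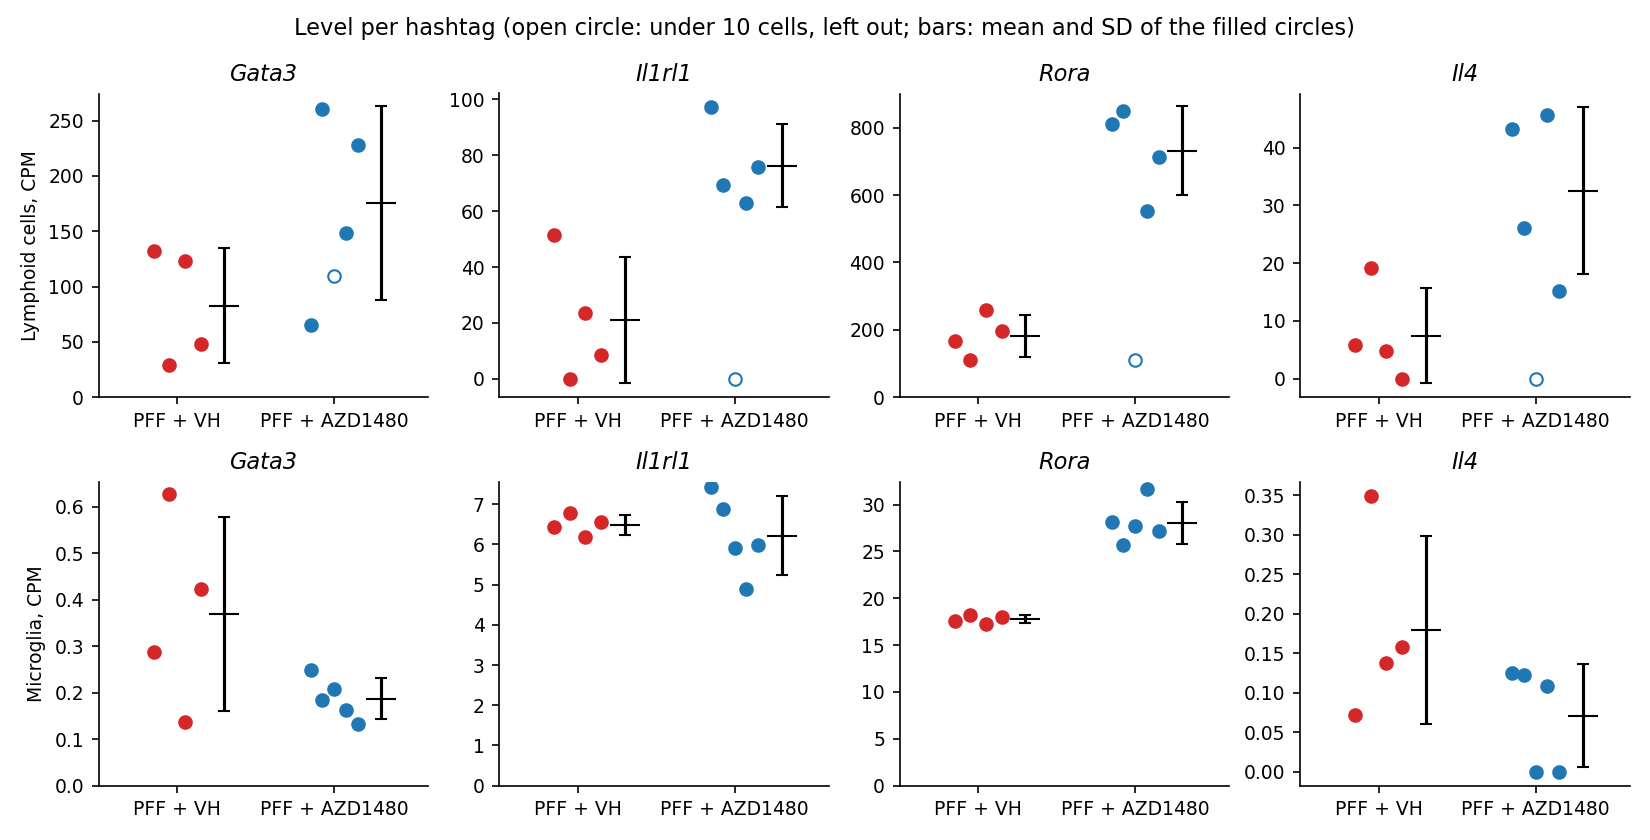
CPM of each gene per hashtag in lymphoid cells (top) and MG (bottom) of PFF + VH and PFF + AZD1480. Filled circles entered the comparison, open circles had under 10 cells, and bars are the mean and SD of the filled circles. The Rora values of the 2 groups do not overlap in either class among the filled circles, and the share of all genes without overlap was not counted.

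Other measures of the lymphoid sums moved with the groups. NK cells were 48.8 to 61.4% of the lymphoid cells in the PFF + VH hashtags and 10.5 to 40.0% in those of PFF + AZD1480, with means of 53.3 ± 5.62 and 22.6 ± 12.9% (SD, n = 4 and 4; two-sided exact permutation p = 0.0286, the smallest that 4 against 4 allows). The AZD1480 hashtag of 6 cells that was left out held 66.7% NK cells, above the VH range. The test was not run with it. The median depth per cell was 1767 to 2288 against 4667 to 6083 UMIs, and MG marker genes made up 1643 to 2064 against 626 to 1488 CPM. The share of UMIs in genes longer than 100 kb was 12.8 to 13.6% against 12.1 to 14.9%. The part of depth and of MG RNA in the Rora difference was not tested. Without NK cells, which left 4 against 3 hashtags, Rora remained higher, with a log2 fold change of 1.63 ± 0.32 (SE; adjusted p = 0.00470, edgeR, 78 of 1841 genes called, 4.24%, and 1.09% higher), and Gata3 was at 0.50. In the T class alone Rora was at 206, 82.9, 488 and 202 CPM against 877, 1009 and 543 CPM, and the AZD1480 hashtags of 1 and 6 T cells that were left out were at 0 and 1023 CPM. Its log2 fold change there was 1.61 ± 0.38 (SE, n = 4 and 3; adjusted p = 0.0160, edgeR), where 80 of 1601 genes, 5.00%, were called and 0.999% were higher. The T class holds some CD3-negative cells, and in CD3-positive cells Rora was at 233, 84.0, 359 and 213 CPM with VH and at 774, 476 and 488 CPM with AZD1480, a mean of 222 ± 113 against 580 ± 169 CPM (SD, n = 4 and 3), without overlap and with no test. Hashtag 2 of PFF + AZD1480 had 38 Rora UMIs in 13 CD3-positive cells and 56 in 3 CD3-negative cells. The call in the T class was lost without hashtag 2 of PFF + VH (adjusted p = 0.0582), hashtag 4 of PFF + VH (0.0548) or hashtag 2 of PFF + AZD1480 (0.0696).

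Part of a list of genes linked to type 2 cells was higher in the same comparison, as were some listed genes of other lineages. Of 37 listed genes for cytokines, receptors, factors and enzymes, 16 had enough counts to be tested in lymphoid cells. Of these, 6 rose with AZD1480, against 2.58% of all genes, and none fell. The median log2 fold change of the 16 was 0.61, against 0.02 over all genes tested. Of 5 tested genes of other lineages 2 also rose. The lists were chosen with earlier results of these data known, so these counts, in every class, are descriptions. In the T class, which holds some CD3-negative cells, 2 of 11 tested rose, Areg and Icos, against 0.999% of all genes. In AZD1480 hashtags 1, 2 and 4 CD3-positive cells held 5, 0 and 42 Areg UMIs. CD3-negative cells, of the T and other lymphoid classes, held 77, 26 and 27 there. In VH hashtags 1 to 4 the counts were 2, 0, 0 and 9 in CD3-positive cells and 0, 1, 15 and 0 in CD3-negative cells. In MG 4 of 19 rose, against 12.1% of all genes, and 1 fell, with a median log2 fold change of 0.03. The 4 were Areg (0.74, adjusted p = 0.0408, edgeR), Crlf2 (0.63), Stat6 (0.18) and Maf (0.17), and Tox fell by 2.35 on the log2 scale. Over all libraries Tox had 309 UMIs in 182 of 70550 MG cells, or 0.828 CPM, and Areg had 688 in 326, or 1.84 CPM. Tox was at 485 CPM in NK and 425 CPM in CD3-positive cells without all 3 members. The part of lymphoid RNA in the fall of Tox in MG was not tested. The differences between lymphoid cells and MG were not tested. In lymphoid cells both cytokine genes tested rose. Areg was at 11.5, 4.80, 70.8 and 43.3 CPM with VH and at 885, 226, 394 and 45.6 CPM with AZD1480, a log2 fold change of 3.52 ± 0.59 (SE; adjusted p = 0.00187, edgeR). Il13 was at 17.2, 0, 61.4 and 0 CPM and at 205, 148, 354 and 0 CPM, a log2 fold change of 3.32 ± 0.69 (SE; adjusted p = 0.00717, edgeR). For both genes the AZD1480 hashtag of 10 cells lay within the range of VH. Few cells carried these UMIs. Il13 was found in 2, 0, 3 and 0 cells of the VH hashtags and in 2, 3, 2 and 0 of the AZD1480 ones, and Areg in 1, 1, 3 and 2 against 4, 3, 3 and 1 cells. All 19, 17 and 62 Il13 UMIs with AZD1480 lay in CD3-negative cells, of which these hashtags had 5, 3 and 4. In CD3-negative cells alone Il13 was at 69.9, 0, 553 and 0 CPM with VH and at 642, 1025, 2415 and 0 CPM with AZD1480, where each AZD1480 hashtag fell under 10 cells and no test was run.

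Among the receptor genes Icos, a costimulatory receptor of T cells and ILC2, rose by a log2 fold change of 1.77 (adjusted p = 1.64e-04, edgeR), Il18r1, the IL-18 receptor, by 1.35 (0.00405) and Il2ra by 1.79 (0.0222). In AZD1480 hashtags 1, 2, 4 and 5 CD3-positive cells (12, 13, 18 and 5) held 27, 27, 43 and 28 Il18r1 UMIs and 36, 60, 93 and 19 Icos UMIs. CD3-negative cells (5, 3, 4 and 1) held 4, 1, 1 and 0 Il18r1 UMIs and 11, 13, 10 and 5 Icos UMIs. Cxcr6, Tnfrsf18 and Crlf2 were at 0.78, 0.10 and -0.47 and did not pass. Of 8 factor genes tested Stat5b, which carries IL-2 and IL-7 signals, rose by 1.07 (0.00989), while Id2 and Ets1, at -0.02 and 0.27, did not pass. Il18r1 and Stat5b were found in a smaller share of the 50 cells with Gata3, Il1rl1 and Rora than of other CD3-positive cells. Of the genes of other lineages, 5 of 8 were tested and 2 rose, Il17a (3.61, adjusted p = 0.0143) and the T-cell inhibitory receptor Ctla4 (2.69, 0.00346). Il17a was at 103.2, 0, 0 and 47.7 CPM with VH and at 410, 78.1, 1107 and 0 CPM with AZD1480, so that 2 of the 4 AZD1480 hashtags lay within the VH range, and hashtag 4 held 194 of its UMIs there. Ctla4 was at 91.7, 33.6, 18.9 and 91.0 CPM with VH and at 529, 234, 628 and 30.4 CPM with AZD1480, of which the last lay within the VH range. Without NK cells Areg, Il13 and Icos remained higher (log2 fold change 2.90, 2.63 and 1.19, adjusted p = 0.00169, 0.0148 and 0.00670) and Il18r1, Il2ra and Stat5b did not pass. In that fit 3 of 13 type 2 genes tested and 2 of 3 genes of other lineages were higher. Il13 and Il17a did not pass without hashtag 4 of PFF + AZD1480 (adjusted p = 0.116 and 0.230). By DESeq2 Il13, Il17a and Ctla4 did not pass (adjusted p = 0.505, 0.566 and 0.0687). With MULTIseqDemux hashtag calls Areg, Il13, Il17a and Il2ra did not pass (edgeR adjusted p = 0.0522, 0.106, 0.0522 and 0.128), and with CLR within cells Il2ra did not (0.0903). The Il17a call was also lost without hashtag 2 of PFF + VH (adjusted p = 0.0511), and that of Il2ra without hashtag 1 of PFF + AZD1480 (0.0909), hashtag 2 of PFF + VH (0.0667) or hashtag 4 of PFF + VH (0.0825). With the hashtag of 6 cells kept Il18r1 and Il17a did not pass (adjusted p = 0.132 and 0.0685), and without a condition on MG markers Areg, Ctla4, Icos, Il13, Il18r1, Il2ra and Stat5b did not pass (adjusted p = 0.0519 for Areg, the lowest) and Il17a was not tested.

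**Figure D5:**
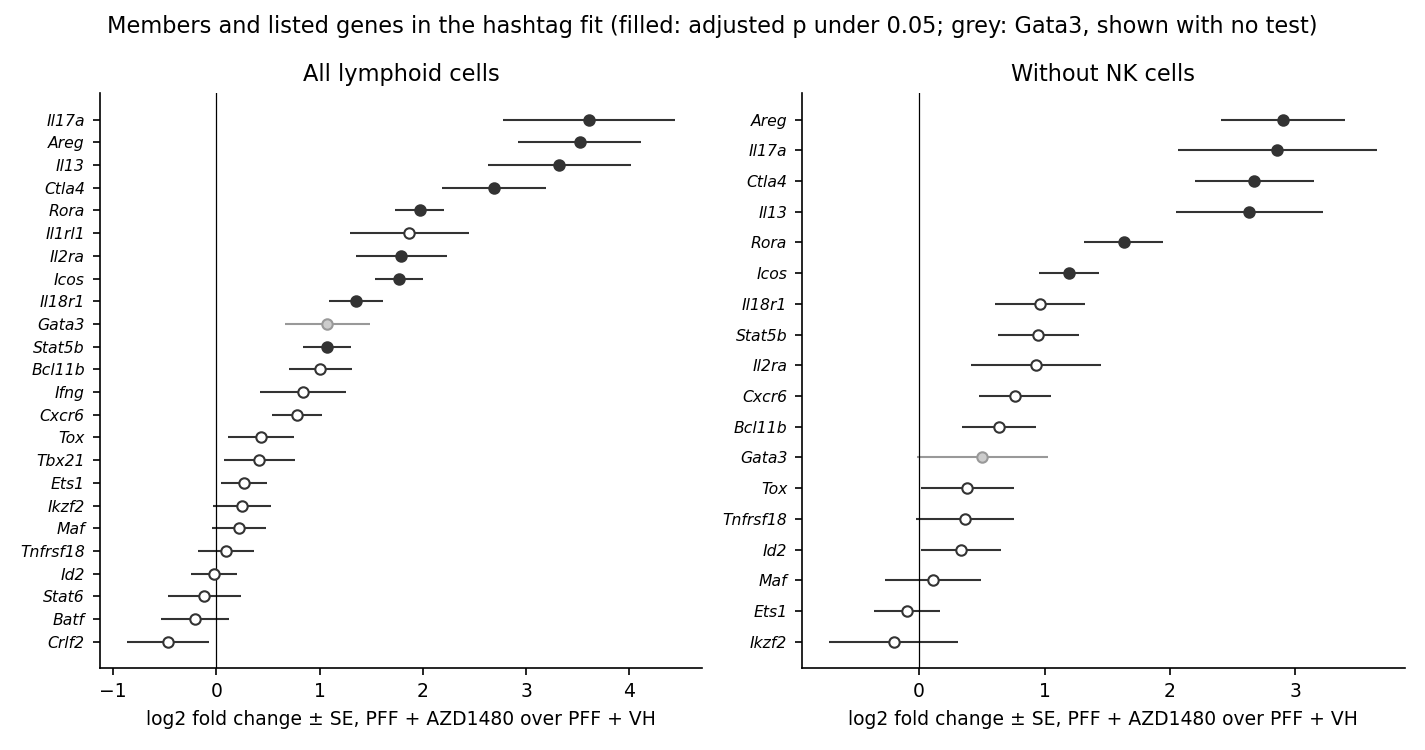
Log2 fold change with its SE, PFF + AZD1480 over PFF + VH, of the members and listed genes that could be tested in lymphoid cells (left, 4 against 4 hashtags) and without NK cells (right, 4 against 3). Filled points passed an adjusted p of 0.05, and grey marks Gata3, which is shown with no test. Rora is at 1.97 on the left and 1.63 on the right.

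The share of lymphoid cells that were neither T nor NK by their markers did not pass a test between the groups, and the result depended on how cells were chosen. The share was 8.57, 13, 14.6 and 6.67% in the PFF + VH hashtags and 26.3, 10.5, 6.90 and 0% in those of PFF + AZD1480, a mean of 10.7 ± 3.73 and 10.9 ± 11.1% (SD, n = 4 and 4; two-sided exact permutation p = 0.971). The share that was CD3-negative and not NK was 15.1 ± 2.19 and 16.5 ± 6.99% (two-sided exact permutation p = 0.800). Leaving out 1 hashtag moved the first difference to between -4.92 and 3.85 percentage points. It was 5.58 points with cells of 1000 or more UMIs, where the VH share was 4.52%, and 4.01 points when a class needed 5 marker UMIs, where it was 6.10%. With no condition on MG markers the share was 27.8 ± 4.35% with VH and 60.5 ± 10.8% with AZD1480 (SD, n = 4 and 5; two-sided exact permutation p = 0.0159, the smallest that 4 against 5 allows). This setting admits cells with more MG than lymphoid UMIs. Among MG cells without Gata3, 533 with PFF + VH and 371 with PFF + AZD1480 held at least 3 lymphoid marker UMIs, beside 435 and 152 lymphoid cells. The median depth of MG was 2445 and 6837 UMIs. The part of such cells and of depth in this difference was not tested.

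In MG, Rora was higher with AZD1480, and Il1rl1 did not pass the test. Rora was at 17.6, 18.2, 17.2 and 18.0 CPM in the 4 hashtags of PFF + VH and at 28.1, 25.7, 27.7, 31.7 and 27.2 CPM in the 5 of PFF + AZD1480. The groups do not overlap, though the share of all genes without overlap was not counted. The log2 fold change of Rora was 0.61 ± 0.07 (SE, n = 4 and 5; adjusted p = 9.66e-05, edgeR). In MG 26.6% of 13648 genes were called and 12.1% were higher, so this call is 1 of 1652. Rora passed in MG under every alternative run there, on the same hashtags whose levels were known when it was chosen. These passes are not independent of that choice. The share of MG UMIs in genes longer than 100 kb also differed, at 16.3 to 17.6% with VH and 19.1 to 20.3% with AZD1480, beside 19.8% in PBS and 19.5% in monomer, where Rora was at 20.4 and 18.2 CPM. Its part in the Rora difference was not tested. In MG without lymphoid or mast marker UMIs the library levels of Rora were 20.3, 18.3, 17 and 27.7 CPM. Il1rl1 in MG was at 6.48 ± 0.251 CPM with VH and 6.22 ± 0.980 CPM with AZD1480 (SD, n = 4 and 5), a log2 fold change of -0.11 ± 0.13 (SE; adjusted p = 0.576, edgeR). Gata3 and Il4 had too few MG counts to be tested. The difference between the Rora changes in lymphoid cells and in MG was not tested.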

How the data were processed

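The authors deposited UMI counts per gene and barcode for 4 droplet libraries (10x 3′ kit version 3.1, mm10, Cell Ranger 7.0.1 per the file headers, which is another release than the study's methods name; whether intronic reads were counted is not given in the sources used here), with hashtag counts in both PFF libraries. The libraries held 99658216 to 116440449 UMIs. The deposited counts were not normalised. Cells with 500 to 15000 UMIs, 250 to 5000 genes and at most 10% mitochondrial UMIs were kept and classed by the highest summed marker UMIs, at least 3 over 2 or more genes. Cells with several hashtags or with none were left out of hashtag comparisons (HTODemux, Seurat 5.3.0, CLR across cells, quantile 0.99). This kept 296 of 435 lymphoid cells of PFF + VH and 83 of 152 of PFF + AZD1480. Of all cells, 37.3% in PFF + VH and 6.41% in PFF + AZD1480 had no hashtag call, and 52.0% and 81.0% had a single one. Scrublet (scanpy 1.11.5) called 4.40 to 9.51% of cells doublets and these were removed only as an alternative. Hashtags were taken as replicates, which is an assumption, so that p-values measure the spread between hashtags of 1 library each. Counts summed per hashtag, at least 10 cells, were tested with edgeR 4.0.16 (R 4.3.3; TMM, filterByExpr, quasi-likelihood F test, Benjamini-Hochberg over all genes tested, threshold 0.05), and the SE is the log2 fold change divided by the square root of F. DESeq2 1.42.0 was an alternative, and the test was checked on simulated counts. Levels are CPM of summed UMIs with exact 95% Poisson intervals, and thinning drew 1000 UMIs per cell. Members and lists were chosen with earlier results of these data known. Named genes are the members, the listed genes highest in the other lymphoid class, the 10 genes that differ most with Gata3, the 5 profiles most like each member's, and listed genes with the largest folds. CD3 groups, the fit without NK cells, hashtags under 10 cells, and co-detection at other depths or without PFF + VH, cells without several hashtags, class levels without 1 library and the listed genes per library were added after seeing the data.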

Additional observations from a re-analysis of the deposited data

How the results depend on the processing

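The number of genes called in lymphoid cells, 191, was 122 with DESeq2, 70 with MULTIseqDemux hashtag calls, 74 with hashtags under 10 cells kept, 78 without NK cells, 348 without a filter on low counts and 364 without Scrublet doublets. Leaving out 1 hashtag gave 76 to 233 genes, with 76 without hashtag 4 of PFF + AZD1480, 115 without hashtag 1 of PFF + VH and 119 without hashtag 2 of PFF + VH. In T cells the count of 80 was 53 with DESeq2, 134 without a filter and 44 to 108 with 1 hashtag left out (44 without hashtag 1 of PFF + AZD1480 or hashtag 2 of PFF + VH, 47 without hashtag 4 of PFF + VH). In MG the count of 3628 stayed within 1.5 times under each alternative, at 2846 to 3319 with 1 hashtag left out. The difference in the share of other lymphoid cells, 0.206 percentage points, was -0.709 with MULTIseqDemux, -1.07 with CLR within cells, -4.92 to 3.85 with 1 hashtag left out (-0.513 without hashtag 1 of PFF + VH, -1.15 without hashtag 4 of PFF + VH, -4.92 without hashtag 1 of PFF + AZD1480) and 32.8 with no condition on MG markers (two-sided exact permutation p = 0.0159). Co-detection was higher in 14 of 24 cases at 500 UMIs, 24 unthinned, 22 at 2000 UMIs and 17 of 18 without PFF + VH. The lymphoid share was above that of MG in 15 of 16 cases at 500 UMIs and in 16 under the other alternatives. The cause of these shifts was not tested. With the hashtag number as a replicate block 146 genes were called in lymphoid cells, 174 in T cells and 3115 in MG, and Stat5b lost its lymphoid call (edgeR adjusted p = 0.0925). Hashtag numbers correlated at -0.019 to -0.0034 in lymphoid cells, -0.032 to 0.14 in T cells and -0.038 to 0.048 in MG, so they share only a number. Il4 rests on 166 UMIs in all, and the CD3-negative cells of PFF + VH on a median of 1001 UMIs per cell.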
